A study of Mus musculus with 10 samples.

Results

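The 40 genes described here encode proteins that copy the genome and divide the cell, or that hold the cycle back. They were chosen by name and not by a cut on measured values, but with earlier results of these data known. By role, 10 act in DNA replication licensing or at the fork, 3 supply nucleotides and 5 act in G1 or at the step into S phase. Another 19 act in G2 and mitosis, and 3 are CDK inhibitors. Each symbol matched 1 of the 55414 Ensembl IDs counted, and all 40 were among the 18005 genes with enough counts to test.

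Total RNA was sequenced from trigeminal ganglia, which hold the sensory neurons of the face, dissected from C57Bl6 mouse embryos at stage E13.5. The knockout group, labelled Prdm12-/-; Sox10 Venus+, had 5 libraries (16, 29, 42, 49 and 50), and the wild-type group, labelled Prdm12+/+; Sox10 Venus+, had 5 (22, 24, 32, 35 and 45). Both groups thus carried the Sox10 Venus label, and the comparison between them asks whether loss of Prdm12, a zinc finger protein needed for nociceptor development, changed expression in the ganglion. The labels describe no sorting, no pooling, no litter and no design of the alleles, so each library was read as a whole ganglion in which fewer cells of a type and less RNA per cell cannot be told apart. Nothing states that libraries came from separate embryos, so p-values measure only the spread between these samples, which may be technical. The sample titles begin with a different letter in each genotype, and whatever that letter marks cannot be told apart from genotype.

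Replication begins when the Orc proteins, Cdc6 and Cdt1 load the ring of Mcm proteins onto DNA in G1, and geminin (Gmnn) blocks loading again until the next cycle. Cyclin D and cyclin E complexes release E2F factors from the RB protein, and E2F then switches on replication and nucleotide genes. Genes of G2 and mitosis are held down early in the cycle through a promoter element called CHR and are often activated through CCAAT boxes bound by NF-Y. In sensory ganglia, dividing cells are neural crest precursors and glia, together with mesenchyme, vessels and macrophages, while neurons have left the cycle.

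Words of both kinds were counted in the promoters of the 40 genes. Sequences of 300 bases, from 250 bases before to 50 bases after the start, were in the RefSeq table (build GRCm38.p6) for 30 of the 40 genes. An E2F site (TTTGGCGC, TTTCCCGC, TTTGCCGC or TTTCGCGC on either strand) was in 6 of the 8 replication promoters present, or 75.0%, against 2.61% of the promoters of all 27025 genes in the table. A CHR (TTTGAA or TTTAAA on either strand) was in 14 of the 15 G2 and mitosis promoters present, or 93.3%, against 30.6% of all genes, and in 2 of the 8 replication promoters. A CCAAT box on either strand was in 14 of those 15 and in 6 of those 8, against 41.1% of all genes. None of these words contains another, and TTTAAA reads the same on both strands and was counted once per place. Cdk1 was the 1 G2 and mitosis gene with an E2F site, Bub1 the 1 without a CHR and Birc5 the 1 without a CCAAT box. Such matches are a description of letters and do not show that a factor is bound.

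The promoters of Plk1, Cdc20 and Mcm2, which after Cdt1 have the lowest p of the genes that hold such a word, and of Mcm6, which has the most E2F words, show both types. Capitals mark every E2F, CHR and CCAAT word. That of Plk1 (chr7:122159185-122159484, plus strand) has CHR words 89 and 29 bases before the start and at position 31 counting the start as 1, and a CCAAT box 14 bases before it. In the Cdc20 promoter (chr4:118437294-118437593, minus strand) a CHR lies 18 bases and CCAAT boxes 53 and 8 bases before the start. Mcm2 (chr6:88898731-88899030, minus strand) has a CHR 70 bases before the start and, 175 bases before it, ATTGG, which is CCAAT on the other strand. Mcm6 (chr1:128359656-128359955, minus strand) has E2F words 110, 106 and 47 bases before the start, the first pair overlapping on opposite strands, and CCAAT boxes 57 and 14 bases before it on the other strand.
Plk1: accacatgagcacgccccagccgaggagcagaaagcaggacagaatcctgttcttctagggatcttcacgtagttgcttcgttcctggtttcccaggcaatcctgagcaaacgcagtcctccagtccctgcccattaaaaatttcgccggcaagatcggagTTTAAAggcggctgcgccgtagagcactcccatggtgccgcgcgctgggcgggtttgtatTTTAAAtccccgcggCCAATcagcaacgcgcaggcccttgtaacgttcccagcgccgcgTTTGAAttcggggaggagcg
Cdc20: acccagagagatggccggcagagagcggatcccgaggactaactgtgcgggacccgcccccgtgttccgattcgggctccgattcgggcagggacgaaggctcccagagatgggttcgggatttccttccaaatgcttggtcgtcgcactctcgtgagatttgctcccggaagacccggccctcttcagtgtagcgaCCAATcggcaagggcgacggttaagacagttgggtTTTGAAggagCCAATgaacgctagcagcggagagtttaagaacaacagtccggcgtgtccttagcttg
Mcm2: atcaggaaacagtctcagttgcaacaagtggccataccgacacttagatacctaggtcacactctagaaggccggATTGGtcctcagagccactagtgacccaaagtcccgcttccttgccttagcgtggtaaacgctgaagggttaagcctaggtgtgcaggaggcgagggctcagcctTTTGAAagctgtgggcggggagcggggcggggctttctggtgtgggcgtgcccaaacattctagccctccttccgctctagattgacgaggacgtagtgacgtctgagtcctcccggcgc
Mcm6: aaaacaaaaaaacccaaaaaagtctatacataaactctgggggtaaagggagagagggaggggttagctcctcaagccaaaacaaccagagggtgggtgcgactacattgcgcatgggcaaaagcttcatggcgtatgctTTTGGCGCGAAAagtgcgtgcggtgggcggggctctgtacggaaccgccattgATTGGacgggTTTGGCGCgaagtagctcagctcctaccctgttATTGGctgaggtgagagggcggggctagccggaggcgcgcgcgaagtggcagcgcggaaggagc

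The libraries held 3258008 counts in all (knockout 49), 13603690 (knockout 29) or, in the other 8, between 27308327 and 33556002. The lowest count of any of the 40 genes was 42, for Gmnn in knockout 49. Prdm12 itself read 8.73, 42.7, 10.1, 12.1 and 17.0 CPM (counts scaled to a common library size by TMM) in knockout 16, 29, 42, 49 and 50. In wild-type 22, 24, 32, 35 and 45 it read 148, 178, 246, 263 and 74.1 CPM, so the groups did not overlap. The neuron marker Tubb3 was at 1007 CPM or more in every library, and the glia and precursor marker Sox10 at 389.5 CPM or more. Wild-type 32 and 35 stood apart in mesenchyme, macrophage and several other cell type markers given below. Knockout 29 stood apart in Sox10, at 3758 CPM against 1373 CPM or less elsewhere. In 20 chi-square comparisons within groups no library repeated another, and the lowest value, 9.88 per gene, was between wild-type 32 and 35. The other wild-type pairs ran from 27.9 to 247 per gene. Such a check cannot tell whether libraries came from the same embryo.

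None of the 40 genes passed the test between knockout and wild type. With edgeR's quasi-likelihood test, 0 of 40 had an adjusted p under 0.05, against 84 of all 18005 genes, or 0.467%. The lowest adjusted p of the family was 0.52, for Cdt1. At an unadjusted p under 0.05 the count was again 0 of 40, where 13.1% of all genes had one. For no gene of the 40 were all knockout libraries on 1 side of all wild-type libraries, a separation seen in 4.21% of all genes. DESeq2 called 0 of 40, against 3.69% of the genes it adjusted, with 0 of 40 at an unadjusted p under 0.05 against 14.9% of all genes. The limma-voom fit with quality weights per library also called 0 of 40, against 13.0% of all genes. In that fit 8 of 40 had an unadjusted p under 0.05, against 32.9% of all genes. Its lowest adjusted p, 0.069, was that of Cdkn1c.

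The log2 fold changes, knockout over wild type, were above 0 for 23 genes and below 0 for 17. Their median was 0.08, beside a median of -0.03 over all genes tested, and they ran from -0.26 (Tyms) to 0.57 (Plk1). Every one of the 40 95% intervals spanned 0. The narrowest, of Cdkn1b, ran from -0.26 to 0.18, and the widest, of Cdkn1c, from -0.59 to 1.62. That of the proliferation marker Mki67 ran from -0.60 to 0.50, so changes in either direction within that range were not resolved with these libraries.

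**Figure D1:**
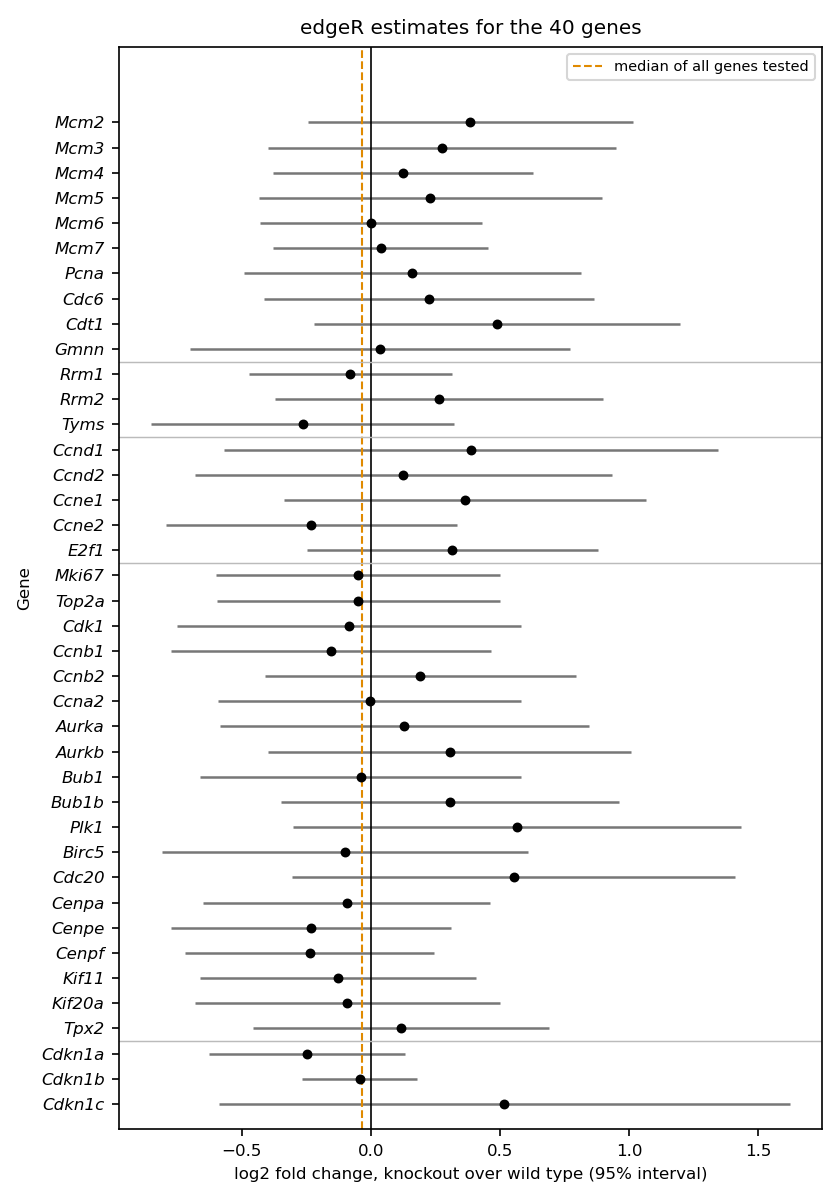
The log2 fold change of each of the 40 genes from edgeR (point, knockout over wild type) with its 95% interval (line), grouped by role from replication at the top to CDK inhibitors at the bottom, and the median of all genes tested as a dashed line. Every interval crosses 0, and the points run from -0.26 (Tyms) to 0.57 (Plk1).

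Libraries of the same genotype spread widely. For 20 of the 40 genes the knockout libraries all lay within the range of the wild-type libraries, which was so for 17.2% of all genes, and for 1 gene, Cdkn1b, the wild type lay within the knockout. Wild-type 32 and 35 were the lowest pair of the 10 libraries for 34 of the 40 genes, or 85.0%, against 15.4% of all genes. These were all 10 replication genes, all 3 nucleotide genes, 4 of 5 G1 genes, 16 of 19 G2 and mitosis genes and 1 of 3 CDK inhibitors. The highest library was wild-type 22 for 13 of the 40 genes, against 7.01% of all genes. It was knockout 29 for 13, against 20.9% of all genes, and wild-type 24 for 10, against 15.8%. The highest library exceeded the lowest 2.84-fold at the median gene, against 2.57-fold over all genes, and from 1.24-fold (Cdkn1b) to 7.73-fold (Cdkn1c).

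**Figure D2:**
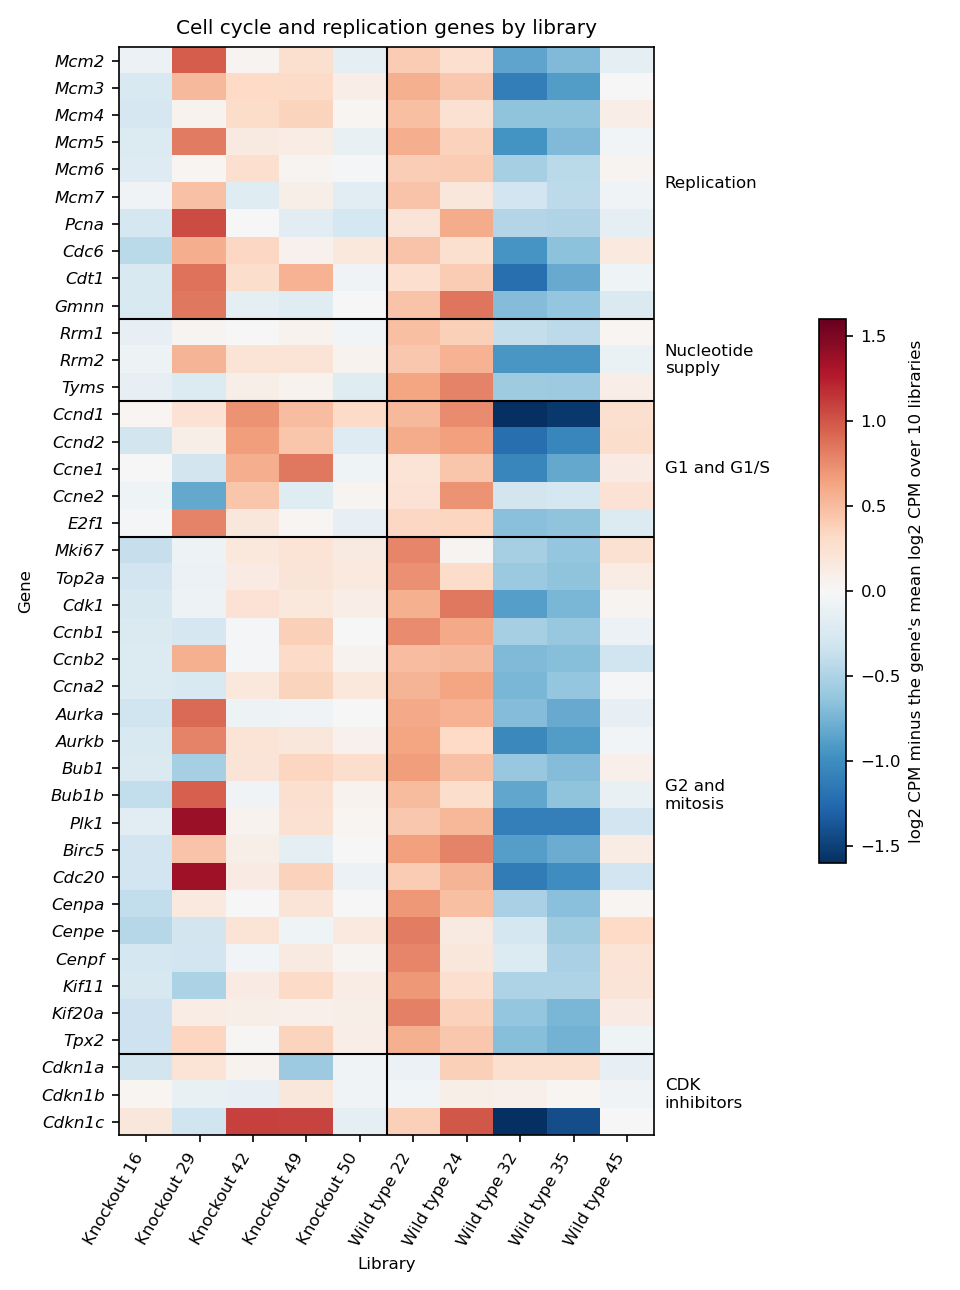
Level of each of the 40 genes (rows, by role) in each library (columns, knockout left and wild type right), as log2 CPM minus that gene's mean log2 CPM over the 10 libraries. The blue columns of wild-type 32 and 35, the lowest pair for 34 of 40 genes, stand out beside the red entries of wild-type 22 and of knockout 29.

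Among the replication genes, all 10 estimates were at or above 0, with a median log2 fold change of 0.19, and none passed the test. That median was -0.08 without wild-type 32 and 35, and 0.10 without knockout 29, the highest library for 6 of the 10. Mcm2, a subunit of the helicase ring, read 76.9, 161, 84.4, 98.3 and 73.7 CPM in the knockout libraries, in the order 16, 29, 42, 49 and 50 that is kept below. It read 109, 99.3, 45.8, 50.2 and 73.6 CPM in wild-type 22, 24, 32, 35 and 45. Knockout 29 was the highest of all and wild-type 32 and 35 the lowest, while the other libraries of both genotypes overlapped, and the log2 fold change was 0.39 (SE 0.29, adjusted p = 0.57). Mcm6, another subunit, read 97.7, 115, 135, 116 and 111 CPM across knockout libraries and 148, 149.6, 78.0, 83.7 and 116 CPM across wild-type libraries. Its group means were nearly equal, 115 ± 14 and 115 ± 34.1 CPM (SD, n = 5 each), with a log2 fold change of 0.00, and the wild-type libraries spread more widely.

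The other ring subunits lay between these. Mcm3 stood at 69.6 ± 13.1 CPM across knockout libraries and 57.4 ± 27.4 CPM across wild-type libraries, a log2 fold change of 0.28. For Mcm4 the means were 94.8 ± 15.7 and 86.9 ± 29.8 CPM (0.12). For Mcm5 they were 85.3 ± 27.2 and 72.7 ± 31.4 CPM (0.23), and for Mcm7 71.3 ± 14.3 and 69.3 ± 17.5 CPM (0.04; all SD, n = 5). The subunits form a ring of 1 copy each, and per kilobase of the longest coding transcript their mean levels lay within 22.9 to 29.3 CPM across knockout libraries and 18.9 to 26.4 CPM across wild-type libraries. That closeness depends on the length used: per kilobase of all exons joined, the knockout means ran from 14.2 (Mcm2) to 26.4 (Mcm4) CPM.

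Cdt1, which loads the ring, had the lowest p of the 40. It read 14.8, 31.8, 21.2, 25.7 and 16.7 CPM across knockout libraries and 21.0, 23.1, 7.54, 9.95 and 16.7 CPM across wild-type libraries. Its log2 fold change was 0.49 (SE 0.32, adjusted p = 0.52), and 3 of the 5 wild-type libraries lay within the knockout range. Cdc6, its partner in loading, stood at 13.8 ± 3.40 and 11.8 ± 4.51 CPM (SD, n = 5), and Gmnn, the inhibitor of Cdt1, at 15.1 ± 5.56 and 14.7 ± 7.19 CPM. Pcna, the sliding clamp of the DNA polymerases, read 37.0, 92.4, 44.8, 39.9 and 36.8 CPM across knockout libraries and 51.9, 67.6, 32.5, 32 and 40.4 CPM across wild-type libraries. Without knockout 29, the highest of its 10 libraries, all other knockout values of Pcna lay within the wild-type range.

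The nucleotide genes showed the narrower knockout spread again, with every knockout library inside the wild-type range for all 3. Rrm1, the large subunit of ribonucleotide reductase, stood at 105 ± 5.54 CPM across knockout libraries and 111 ± 31.4 CPM across wild-type libraries, a log2 fold change of -0.08. Rrm2, its small subunit, stood at 47.8 ± 7.95 and 39.8 ± 18.4 CPM (0.26). Tyms, which makes thymidylate, read 23.1, 21.7, 27.1, 26.3 and 22.2 CPM across knockout libraries and 39.2, 44.0, 17.0, 16.9 and 27.2 CPM across wild-type libraries. The knockout libraries of Tyms lay below wild-type 22, 24 and 45, but for knockout 42 only just below wild-type 45, and above wild-type 32 and 35, so the estimate of -0.26 (SE 0.27, adjusted p = 0.68) averages over both.

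Of the G1 genes, the D cyclins had the widest range between wild-type libraries. Ccnd1, which partners CDK4 and CDK6, read 78.1, 89.1, 125, 107 and 94.3 CPM across knockout libraries and 109.5, 129, 22.2, 26.1 and 91.0 CPM across wild-type libraries. All knockout libraries lay between wild-type 35 and wild-type 24, and the log2 fold change was 0.39 (SE 0.44, adjusted p = 0.71). Ccnd2 read 169, 221, 329, 281 and 180.0 CPM across knockout libraries and 313, 326, 89.8, 100.2 and 252 CPM across wild-type libraries, with the same libraries at the bottom. The E cyclins, which drive entry into S phase, had estimates of opposite sign: 0.37 (SE 0.32) for Ccne1 and -0.23 (SE 0.26) for Ccne2. Knockout 29 was the lowest of all libraries for Ccne2, at 9.98 CPM. E2f1, a transcription factor of S phase genes, stood at 27.0 ± 7.77 and 21.7 ± 7.38 CPM (SD, n = 5), a log2 fold change of 0.32.

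Of the 19 genes of G2 and mitosis, 7 estimates were above 0 and 12 below, with a median of -0.05 under TMM scaling and 0.01 under RLE scaling. That median was -0.32 without wild-type 32 and 35, -0.35 without these and knockout 29 and 49, and 0.34 in the limma-voom fit. Mki67, present in dividing cells and absent in resting ones, read 117, 143, 170.1, 177 and 168 CPM across knockout libraries and 261, 157, 105, 99.0 and 180.4 CPM across wild-type libraries. All knockout libraries lay within the wild-type range, and the log2 fold change was -0.05 (SE 0.25, adjusted p = 0.95). Top2a, the topoisomerase that untangles chromosomes, ran from 112 CPM in wild-type 35 to 293 CPM in wild-type 22, with the knockout libraries between 143 and 203 CPM. Cdk1, the kinase of mitotic entry, read 39.4 to 55.2 CPM across knockout libraries and 25.7 to 84.4 CPM across wild-type libraries. Its cyclins had estimates of -0.15 (Ccnb1), 0.19 (Ccnb2) and 0.00 (Ccna2).

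Plk1 and Cdc20 had the largest estimates of the mitotic genes. Plk1, a kinase of spindle assembly, read 19.9, 57.8, 23.1, 26.3 and 22.8 CPM across knockout libraries and 30.1, 32.1, 10.4, 10.4 and 18 CPM across wild-type libraries (log2 fold change 0.57, SE 0.40, adjusted p = 0.54). Cdc20, which activates the anaphase-promoting complex, read 30.9, 97.7, 42, 49.4 and 36 CPM across knockout libraries and 50.6, 55.7, 17.6, 19.2 and 31.0 CPM across wild-type libraries (0.55, SE 0.39, adjusted p = 0.55). In both genes knockout 29 was well above every other library, wild-type 32 and 35 were below every other, and the remaining 7 libraries of both genotypes were mixed.

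Knockout 29 was the highest library for Bub1b and the lowest knockout library for Bub1. Aurka, the kinase of the spindle poles, had an estimate of 0.13 (SE 0.33), and Aurkb, the kinase of the chromosomal passenger complex, 0.31 (SE 0.32). Bub1b, a checkpoint protein of the kinetochore, reached 107 CPM in knockout 29 against 42.1 to 65.6 CPM in its 4 companions. Its relative Bub1 had 18.9 CPM there against 23.2 to 34.7 CPM. The remaining mitotic genes had estimates from -0.24 to 0.12: Birc5 (survivin) -0.10, Cenpa (the centromeric histone) -0.09, the kinetochore proteins Cenpe -0.23 and Cenpf -0.24, the spindle motors Kif11 -0.13 and Kif20a -0.09, and the spindle assembly factor Tpx2 0.12.

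The CDK inhibitors, which hold cells out of the cycle, did not share 1 pattern. Cdkn1a (p21) read 23.6, 33.6, 30.2, 19.4 and 27.9 CPM across knockout libraries and 27.2, 37.6, 34.7, 34.6 and 26.5 CPM across wild-type libraries. Its groups overlapped, and the log2 fold change was -0.25 (SE 0.17, adjusted p = 0.55). Cdkn1b (p27) was the most even of the 40, with 64.4 to 79.8 CPM across knockout libraries and 68.2 to 75.1 CPM across wild-type libraries. Cdkn1c (p57) was the least even, with 302, 214, 568, 562 and 240.3 CPM across knockout libraries and 348, 529, 73.4, 99.9 and 267 CPM across wild-type libraries (log2 fold change 0.52, SE 0.51, adjusted p = 0.67). Unlike the other inhibitors, Cdkn1c was lowest in wild-type 32 and 35.

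**Figure D3:**
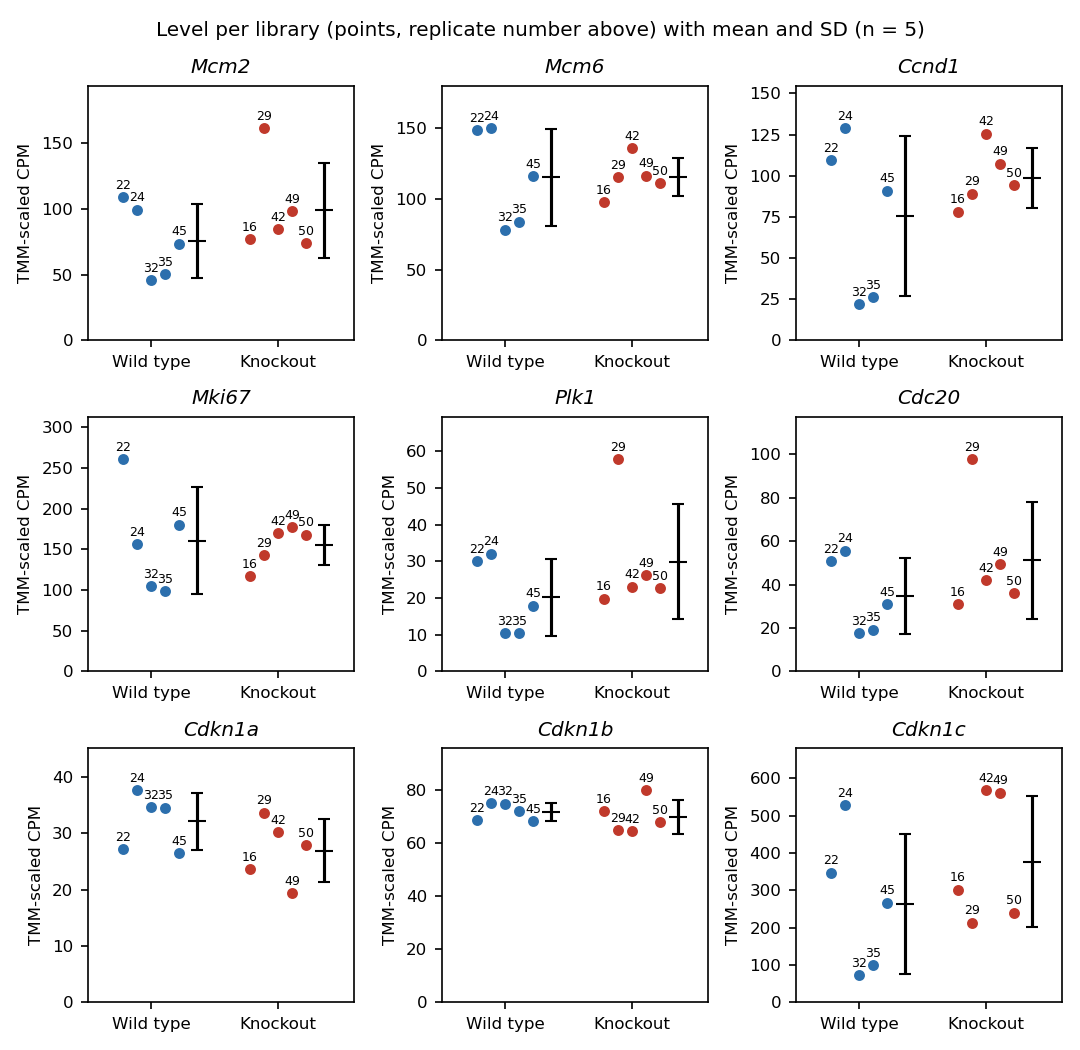
TMM-scaled CPM in every library (points with replicate numbers) for 9 genes, with the mean and SD of each group (bars, n = 5). Wild-type 32 and 35 are the lowest points in every panel but those of Cdkn1a and Cdkn1b, and knockout 29 is the highest for Mcm2, Plk1 and Cdc20.

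Mesenchyme and macrophage markers were low in the wild-type libraries where these genes were low, while knockout 29 had low marker sums beside a high mitotic sum. Of the knockout libraries, 29 had the lowest mesenchyme sum (3046 CPM) and macrophage sum (184 CPM). Its summed level of the 19 mitotic genes, 1159 CPM, was the highest of the knockout libraries. Knockout 16 had the lowest mitotic sum of the knockout libraries (800 CPM). It had the next lowest mesenchyme sum (4212 CPM) and macrophage sum (205 CPM) after knockout 29. Summed over 11 mesenchyme markers, wild-type 32 and 35 read 941 and 1230 CPM, against 3046 to 11305 CPM in the knockout libraries and 4818 to 6536 CPM in the other wild-type libraries. Summed over 10 macrophage markers they read 52.8 and 62.1 CPM, against 184 to 361 CPM across knockout libraries and 154 to 292 CPM in the other wild-type libraries. Those libraries were the lowest pair for 9 of 11 mesenchyme markers and for 10 of 10 macrophage markers, none of which was at 0. Their sums were also the lowest for cartilage (235 and 259 CPM), central nervous system (1.45 and 1.70 CPM), epithelium (11.2 and 10.5 CPM) and erythroid markers (703 and 521 CPM). For muscle and endothelium markers they were not the lowest pair. Wild-type 32 and 35 were high in the sum of 12 sensory neuron markers, at 14745 and 15481 CPM. Knockout 29 had 15375 CPM and the other 7 libraries 6201 to 10523 CPM. Knockout 29 was the highest library for only 3 of the 12, Tubb3, Nefm and Prph (3407, 4894 and 2856 CPM). Stmn2 read 978 CPM there against 1979 and 1931 CPM in wild-type 32 and 35, and Elavl4 284 CPM against 722 and 730 CPM. The sum of 10 glia and precursor markers did not set wild-type 32 and 35 apart. It was 2667 and 2898 CPM in these, 5581 CPM in knockout 29 and otherwise 1602 to 2867 CPM. The summed level of the 19 mitotic genes was 642 and 622 CPM in wild-type 32 and 35, 1042 to 1581 CPM in wild-type 22, 24 and 45, and 800 to 1159 CPM in the knockout. The sum of 9 endothelium markers was 434 to 1087 CPM across knockout libraries and 228 to 521 CPM across wild-type libraries, and all 9 estimates were above 0. None of these 9 passed edgeR's test (0.467% of all genes did), while 8 of 9 had an unadjusted p under 0.05 (13.1% of all genes). Of the 12 sensory neuron markers, 10 estimates were below 0, none passed and 6 had an unadjusted p under 0.05. No marker of the other cell type lists passed either. The part of these cell types in the levels of the 40 genes was not tested.

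**Figure D4:**
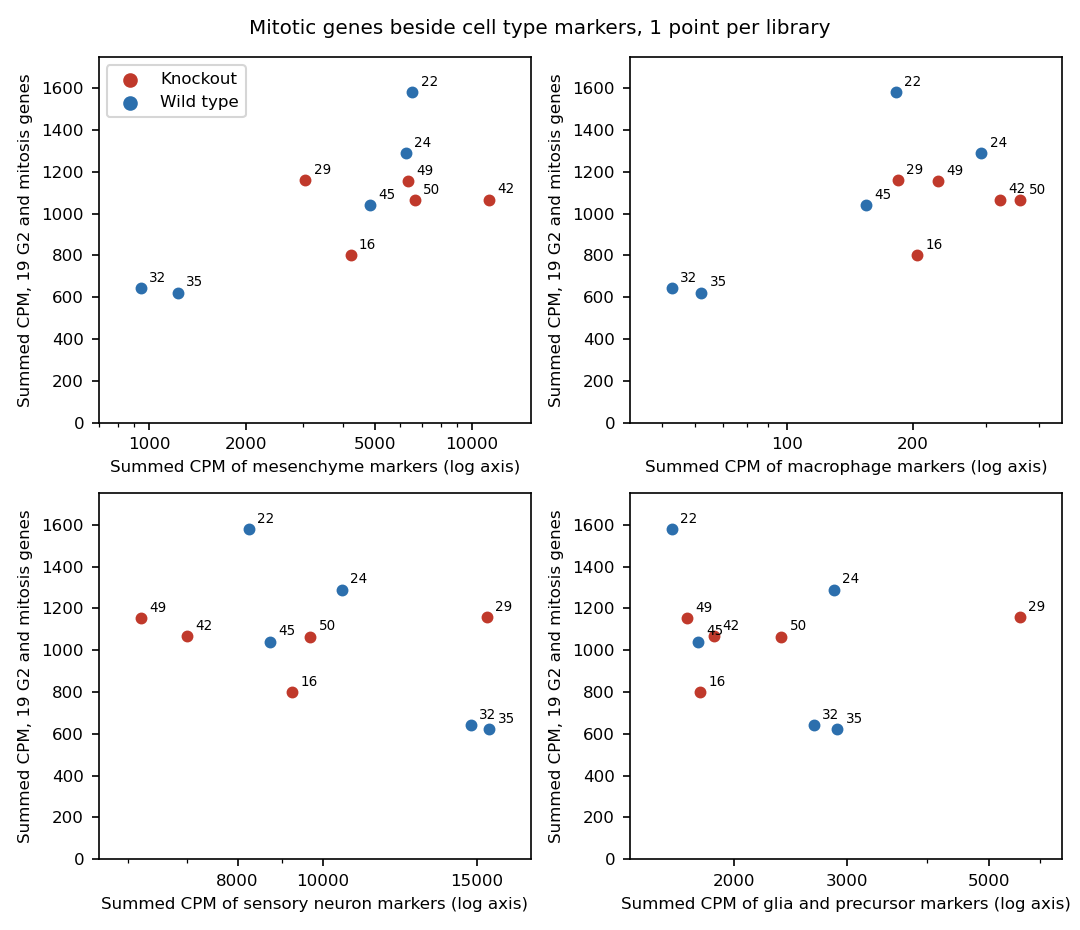
Summed CPM of the 19 G2 and mitosis genes (vertical, linear axis from 0) against summed CPM of the markers of 4 cell types (horizontal, log axes), 1 labelled point per library. Wild-type 32 and 35 are lowest on the mesenchyme, macrophage and mitotic axes (642 and 622 CPM for the mitotic sum), and knockout 29 is highest for glia and precursor markers at 5581 CPM.

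Leaving out libraries that stood apart turned the sign of many estimates but brought none of the 40 genes past the threshold: 16 signs changed without wild-type 32 and 35, 10 without knockout 29 and 49, and 23 without all 4. Without wild-type 32 and 35, edgeR called 0 of 40, against 0.102% of all genes. Then 9 estimates were above 0 and 31 below, with a median of -0.15 beside 0.03 over all genes, and 3 of 40 had an unadjusted p under 0.05 (6.62% of all genes). Tyms had the lowest p, with a log2 fold change of -0.57 (adjusted p = 0.57). Without knockout 29 and 49, the libraries of lowest total count, it called 0 of 40 (0.283% of all genes), with 0 at an unadjusted p under 0.05 (10.7% of all genes) and a median of -0.04. Without all 4, a comparison of 3 against 3 libraries chosen after the data were seen, it called 0 of 40 (0.0381% of all genes). In that fit all 40 estimates were below 0, with a median of -0.32 beside 0.00 over all genes, and 4 of 40 had an unadjusted p under 0.05 (7.04% of all genes). Libraries were left out for their markers or totals, yet wild-type 32 and 35 were also the lowest for these genes, so removing them raises the wild-type mean by construction.

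The limma-voom fit with quality weights, which changes both the model and the weights, moved the estimates the opposite way. It gave the lowest weights to wild-type 24 (0.19) and knockout 29 (0.21), and the highest to knockout 50 (2.54) and wild-type 35 (2.08). Knockout 49, the library of lowest total count, had a weight of 1.90. In that fit 38 of 40 estimates were above 0, with a median of 0.40. Only Cdkn1a kept 1 sign (below 0) under all 20 alternatives run.

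Knockout 29 differed from the other knockout libraries in step with base composition, in these genes as over all genes. Over all genes tested with a transcript GC value, the median log2 ratio of knockout 29 to the median of the other knockout libraries was -0.65 in the fifth of genes with the lowest GC (44.0% or less). It was 0.51 in the fifth with the highest GC (55.7% or more). The difference was 1.17 in knockout 29 and between -0.19 and 0.27 in the other 9 libraries. Of the 10 members highest in GC, 8 were higher in knockout 29 than in the median of the other knockout libraries, with a median ratio of 1.64. Among the 10 members lowest in GC it was 2, with a median ratio of 0.825. Plk1, at 2.52 times, and Cdc20, at 2.50 times, were among the former, and Ccne2, at 0.573 times, and Bub1, at 0.584 times, among the latter. Pcna (2.40 times) was high at a low GC of 45.3%, and Cdkn1c (0.495 times) low at the highest, 59.4%. The 23 members higher in knockout 29 also had shorter transcripts than the 17 lower, at medians of 2755 and 3740 bases. The parts of base composition and transcript length in the estimates were not tested.

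**Figure D5:**
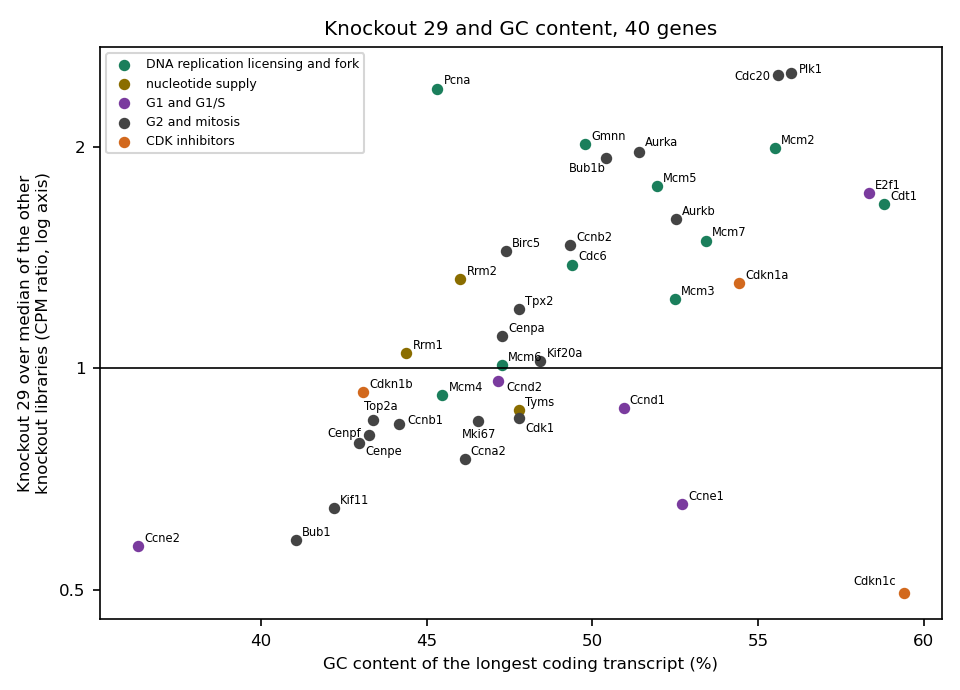
CPM of each of the 40 genes in knockout 29 divided by the median of the other 4 knockout libraries (vertical, log axis) against the GC content of its longest coding transcript (horizontal, percent), coloured by role. GC-rich genes such as Plk1 (2.52) lie mostly above 1 and GC-poor genes such as Bub1 (0.584) mostly below, with Pcna and Cdkn1c away from that pattern.

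Other genes of the same pathways did not pass the test either. Of 163 listed, 158 were tested, 0 passed with edgeR and 6 had an unadjusted p under 0.05, against 13.1% of all genes. The groups did not overlap for 1 of them, against 4.21% of all genes. Median log2 fold changes were -0.07 for 39 origin and replisome genes, -0.15 for 10 nucleotide genes, 0.10 for 22 cyclins, CDKs and regulators, -0.02 for 19 genes of the E2F, RB and MuvB group, -0.03 for 56 spindle, kinetochore and cytokinesis genes and 0.02 for 13 p53 targets, beside -0.03 over all genes. The lowest pair of libraries was wild-type 32 and 35 for 76 of the 158, or 48.1%, against 15.4% of all genes. By list this share ran from 23.1% of the p53 targets to 59.1% of the cyclins, CDKs and regulators.

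Orc2, a subunit of the origin recognition complex, was the 1 pathway gene whose groups did not overlap. It read 30.9, 21.8, 33.8, 32.7 and 33.1 CPM across knockout libraries and 43.3, 47.1, 43.4, 45.3 and 39.1 CPM across wild-type libraries. Its log2 fold change was -0.52 (SE 0.14, adjusted p = 0.15), which did not pass the threshold, and wild-type 32 and 35 did not stand apart in it. Orc3, of the same complex, followed with -0.35 (SE 0.18, adjusted p = 0.43). Of the nucleotide genes the lowest p were those of Dck (-0.25, SE 0.12), which phosphorylates deoxycytidine, and Ctps (-0.23, SE 0.11), which makes CTP.

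Rb1, which encodes the RB protein, read 74.2, 31.0, 47.5, 45.4 and 60.4 CPM across knockout libraries and 63.4, 62.8, 107, 100.1 and 69.9 CPM across wild-type libraries. Here wild-type 32 and 35 were the highest libraries and knockout 29 the lowest, whereas wild-type 32 and 35 were the lowest pair for 34 of the 40 genes, and the estimate of -0.64 (SE 0.24, adjusted p = 0.30) did not pass. Tfdp2, a partner of E2F, had -0.38 (SE 0.14, adjusted p = 0.29). Among cyclins and regulators the lowest p were those of Ccng1, a p53 target (-0.58, SE 0.20, adjusted p = 0.27), and Fbxw7, which marks cyclin E for destruction (-0.37, SE 0.14, adjusted p = 0.30). Racgap1 (0.30, SE 0.14), which acts in cytokinesis, and Espl1 (0.45, SE 0.26), which encodes separase, had the lowest p of the spindle list. Sesn2, a stress response gene, had the lowest p of the p53 targets (0.74, SE 0.24, adjusted p = 0.23).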

How the data were processed

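Each of the 10 deposited files holds 1 library's raw counts for all genes. Per the submitters' processing notes, the authors ran STAR 2.7.10a, bcl2fastq 2.20.0.422 and the counter featureCounts 1.5.0-p1. These notes name the builds GRCm39 and mm10 without their roles. Not given in the sources used here: annotation, strandedness, handling of reads with several matches. Symbols matched 52081 of 55414 IDs.

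Genes were kept with filterByExpr (minimum count 10), scaled with TMM and tested with edgeR 4.0.16's quasi-likelihood test in R 4.3.3, all 10 libraries, no covariate, with Benjamini-Hochberg adjustment over 18005 genes and a threshold of 0.05. All p-values and SEs are from this fit unless another is named (DESeq2 1.42.0, limma 3.58.1). The fit was tested on simulated data, which were drawn without the shifts shared by many genes of a library that are described above. Precision is limited by depth in knockout 49, where 3 counts are 0.867 CPM. Promoters come from RefSeq, and GC and length from GENCODE vM21 transcripts. Duplicate libraries were sought by chi-square over genes with enough counts.

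The 40 genes and the pathway and cell type lists were chosen with earlier results of these data known. All 40 are named. Values in every library are given for the 5 with the lowest p, and for some others chosen after their values were seen. Of each other pathway list the pair of genes with the lowest p is named. Alternatives covered the test, scaling, filter, prior and libraries left out.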

Additional observations from a re-analysis of the deposited data

Results flagged for a closer look

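Among the 40 genes in each genotype, 9 of 80 groups of 5 libraries held a library far from the others by Dixon's criterion, which chance alone meets in about 1 of 20 groups. None was in the wild type. In 8 of the 9 the library was knockout 29, at the top: Mcm2 at 161 CPM (next knockout library 98.3), Mcm5 at 132 (81.9), Pcna at 92.4 (44.8), Gmnn at 24.9 (14), E2f1 at 40.5 (26.3), Aurka at 46.7 (24.9), Plk1 at 57.8 (26.3) and Cdc20 at 97.7 (49.4). The ninth was Kif20a, lowest in knockout 16 at 27.8 CPM against 37.0 in the next library. The genes of 1 library are not independent of each other. Wild-type 32 and 35 were low together, a pattern this criterion cannot pick out.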

How the results depend on the processing

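Under all 20 alternatives 0 of the 40 genes passed the threshold, and the lowest adjusted p of any of them was 0.069 (limma-voom). The median log2 fold change of the 40 ran from -0.32 to 0.40. It was 0.28 without wild-type 24, 0.21 without wild-type 22 and -0.05 without wild-type 35, against 0.08 with all libraries. Within-group spread of the family's mean log2 CPM was 0.43. Signs changed for 5 genes with DESeq2, RLE factors or the 1 CPM filter, for 15 with limma-voom, and for 23 without the 4 libraries that stood apart.

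Over all genes, 17 were called higher and 67 lower. DESeq2 called 399 and 238, limma-voom 1264 and 1080, no filter 55 and 102, and at least 1 CPM in 5 libraries 26 and 53. Without wild-type 32 and 35 the counts were 0 and 19, without knockout 29 and 49 they were 6 and 47, and without all 4 they were 0 and 7. Leaving out each library in turn gave 2 to 35 higher and 27 to 88 lower. The cause of these shifts was not tested, except that the smaller comparisons use fewer samples. No paired analysis was possible because no replicate number occurs in both groups.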

Other observations

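The balance between replication and mitosis varied less than either. The summed CPM of the 13 replication and nucleotide genes divided by that of the 19 G2 and mitosis genes was 0.824, 0.896, 0.768, 0.719 and 0.674 in knockout 16, 29, 42, 49 and 50. It was 0.649, 0.760, 0.742, 0.798 and 0.709 in wild-type 22, 24, 32, 35 and 45. Wild-type 32 and 35 lay inside the knockout range here, although their mitotic sums were the lowest of the 10. Origin and replisome genes outside the 40 also spanned a narrower range, with sums of 1283 to 1613 CPM in the knockout and 1214 to 1829 CPM in the wild type.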
